A study of Mus musculus with 12 samples.

Results

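Transforming growth factor beta (TGF-beta) signalling was examined in cultured mouse macrophages through 10 genes: the ligand Tgfb1, the receptors Tgfbr1 and Tgfbr2, the signalling Smads Smad2, Smad3 and Smad4, the inhibitory Smad7, and the nuclear corepressors Ski, Skil and Tgif1. These were the rows of the deposited count and FPKM tables that carry those gene names, 10 of the 54532 genes listed, and all 10 passed the filter on low counts in every comparison. FPKM are counts scaled for gene length and library size, a scale on which different genes can be compared.

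TGF-beta is secreted in a latent form and must be released before it binds Tgfbr2, a receptor kinase that then recruits and phosphorylates Tgfbr1. Tgfbr1 phosphorylates Smad2 and Smad3, which join Smad4 and enter the nucleus, while Smad7 blocks the receptors and Ski, Skil and Tgif1 restrain transcription by the Smads. In macrophages the pathway is known for its part in tissue repair and in matrix production, and integrins are among the molecules that release the latent ligand.

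The libraries were made from polyadenylated RNA of bone marrow macrophages from C57BL/6J wild-type mice aged 2 to 3 months, grown in 15% serum with CSF-1 at 12 ng/ml for 24 h and at 120 ng/ml for 48 h. The cells were seeded on uncoated or on fibronectin-coated dishes and then exposed for 24 h to 10 µg/ml of an antibody that neutralizes integrin α5 (anti-ITGA5), a receptor for fibronectin, or to the same dose of control IgG. This gave 4 groups of 3 libraries, named by the antibody (IgG or anti-ITGA5) and by whether the dish was coated, and every group carried the CSF-1, the serum and an antibody. No group lacked antibody, TGF-beta was not added as a treatment in any group, and the p-values measure the spread between these libraries. Whether the serum carried TGF-beta is not given in the sources used here. The study describes its replicates as biologically independent experiments, while the sample labels do not say whether libraries of a group came from separate mice or cultures.

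Counts on genes ran from 12954342 to 22075432 per library, and the members held between 273 counts (Smad7) and 6060 counts (Tgfb1) in a library. All 10 macrophage markers had at least 10 counts in every library. Their summed level, most of it Lyz2, relative to the library total was 14100 to 15300 CPM in IgG without fibronectin, 10600 to 12300 in anti-ITGA5 without fibronectin, 14700 to 14900 in IgG with fibronectin and 12000 to 12100 in anti-ITGA5 with fibronectin. It was thus lower in both antibody groups, and its part in the differences below was not tested. Summed markers of fibroblasts, neutrophils, dendritic cells and lymphocytes reached at most 3.01, 3.86, 1.39 and 0.687 CPM, with Ly6g, Cd3g and Ncr1 at 0 in every library. Platelet and megakaryocyte markers, nearly all of their sum Pf4, which macrophages also express, summed to 376 to 460 CPM in IgG and 279 to 366 in anti-ITGA5 without fibronectin, and to 390 to 496 and 359 to 374 with it, with Gp1bb at 0 in every library. They too were lower in the antibody groups, and their part in the differences below was not tested. Replicates of anti-ITGA5 without fibronectin differed more (chi-square per gene 11.4 to 25.6) than those of the other groups (2.79 to 8.13). Itga5 itself stood at 46.1 ± 2.57 FPKM in IgG and 51.0 ± 1.94 in anti-ITGA5 without fibronectin (SD, n = 3), with no call (adjusted p = 0.0906). On fibronectin it stood at 46.9 ± 1.88 and 49.4 ± 2.50 (adjusted p = 0.273). The antibody acts on the protein, so this transcript does not check the labels.

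The promoters of the receptors and of the ligand are shown because Tgfbr1 and Tgfbr2 were the members that fell on both kinds of dish, while Tgfb1 fell on neither. The sequences are from RefSeq on GRCm38.p6, run from 250 bases before to 50 bases after the annotated start and are written 5′ to 3′ on the strand of the gene. Capitals mark GC boxes, the letters GGGCGG read on either strand.

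Tgfbr2 (chr9:116175314-116175613, minus strand): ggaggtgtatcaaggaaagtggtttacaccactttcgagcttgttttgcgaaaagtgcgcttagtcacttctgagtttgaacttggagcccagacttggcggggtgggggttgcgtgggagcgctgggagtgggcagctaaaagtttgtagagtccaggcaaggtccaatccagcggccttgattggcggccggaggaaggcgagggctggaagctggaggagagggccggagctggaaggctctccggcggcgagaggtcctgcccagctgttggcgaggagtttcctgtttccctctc
Tgfbr1 (chr4:47352972-47353271, plus strand): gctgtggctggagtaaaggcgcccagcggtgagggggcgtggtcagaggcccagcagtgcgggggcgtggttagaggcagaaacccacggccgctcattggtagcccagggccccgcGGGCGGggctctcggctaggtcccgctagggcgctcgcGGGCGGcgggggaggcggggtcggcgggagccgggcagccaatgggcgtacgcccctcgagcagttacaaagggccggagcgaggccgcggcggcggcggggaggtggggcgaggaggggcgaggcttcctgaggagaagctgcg
Tgfb1 (chr7:25686752-25687051, plus strand): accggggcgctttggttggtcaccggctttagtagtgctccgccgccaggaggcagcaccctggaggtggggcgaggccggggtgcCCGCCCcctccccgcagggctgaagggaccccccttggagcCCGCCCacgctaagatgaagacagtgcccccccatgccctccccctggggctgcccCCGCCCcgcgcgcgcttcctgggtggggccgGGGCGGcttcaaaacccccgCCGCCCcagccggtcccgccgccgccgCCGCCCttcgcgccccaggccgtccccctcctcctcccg

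The Tgfbr2 window held 0 GC boxes and 2 CCAAT boxes (CCAAT, either strand). The Tgfbr1 window held 2 GC boxes and 2 CCAAT boxes, and the Tgfb1 window held 6 GC boxes and 0 CCAAT boxes, none of the matches overlapping another. GC content was 59.0% in the Tgfbr2 window, 74.7% in that of Tgfbr1 and 77.0% in that of Tgfb1, against a median of 52.7% over 32851 promoters of the same length. A GC box occurred in 35.7% and a CCAAT box in 37.4% of those promoters. The letters of a TATA box (TATAAA, in 13.6% of promoters), an AP-1 site (TGANTCA, 7.81%) and a palindromic Smad element (GTCTAGAC, 0.213%) were not in these windows on either strand. RefSeq promoters matched 6 of the 10 members. Of the others, the Ski window held 6 GC boxes, that of Smad3 held 2, and those at the 5 listed starts of Tgif1 held between 0 and 5. RefSeq also lists a second Tgfbr1 start, whose window held 0 GC boxes and had a GC content of 52.0%.

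The ligand was the most abundant member. Averaged over the 12 libraries, Tgfb1 stood at 55.2 FPKM, above 94.1% of the genes tested, and Smad7 at 4.41 FPKM was the lowest, near the median gene at 5.31 FPKM. Between them came Ski at 31.8, Tgfbr2 at 22.9, Tgfbr1 at 16.6, Smad4 at 16.0, Skil at 15.5, Smad2 at 12.9, Tgif1 at 9.59 and Smad3 at 7.09 FPKM. The ranges of neighbours in this order over the 12 libraries did not overlap, except that those of Tgfbr1 and Smad4, of Smad4 and Skil, and of Skil and Smad2 overlapped. Tgfbr1 was above Smad4 in 10 of 12 libraries and Smad4 was above Skil in 7 of 12, so neither pair could be ordered beyond its spread. Skil was above Smad2 in 12 of 12 libraries, although their ranges overlapped.

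**Figure D1:**
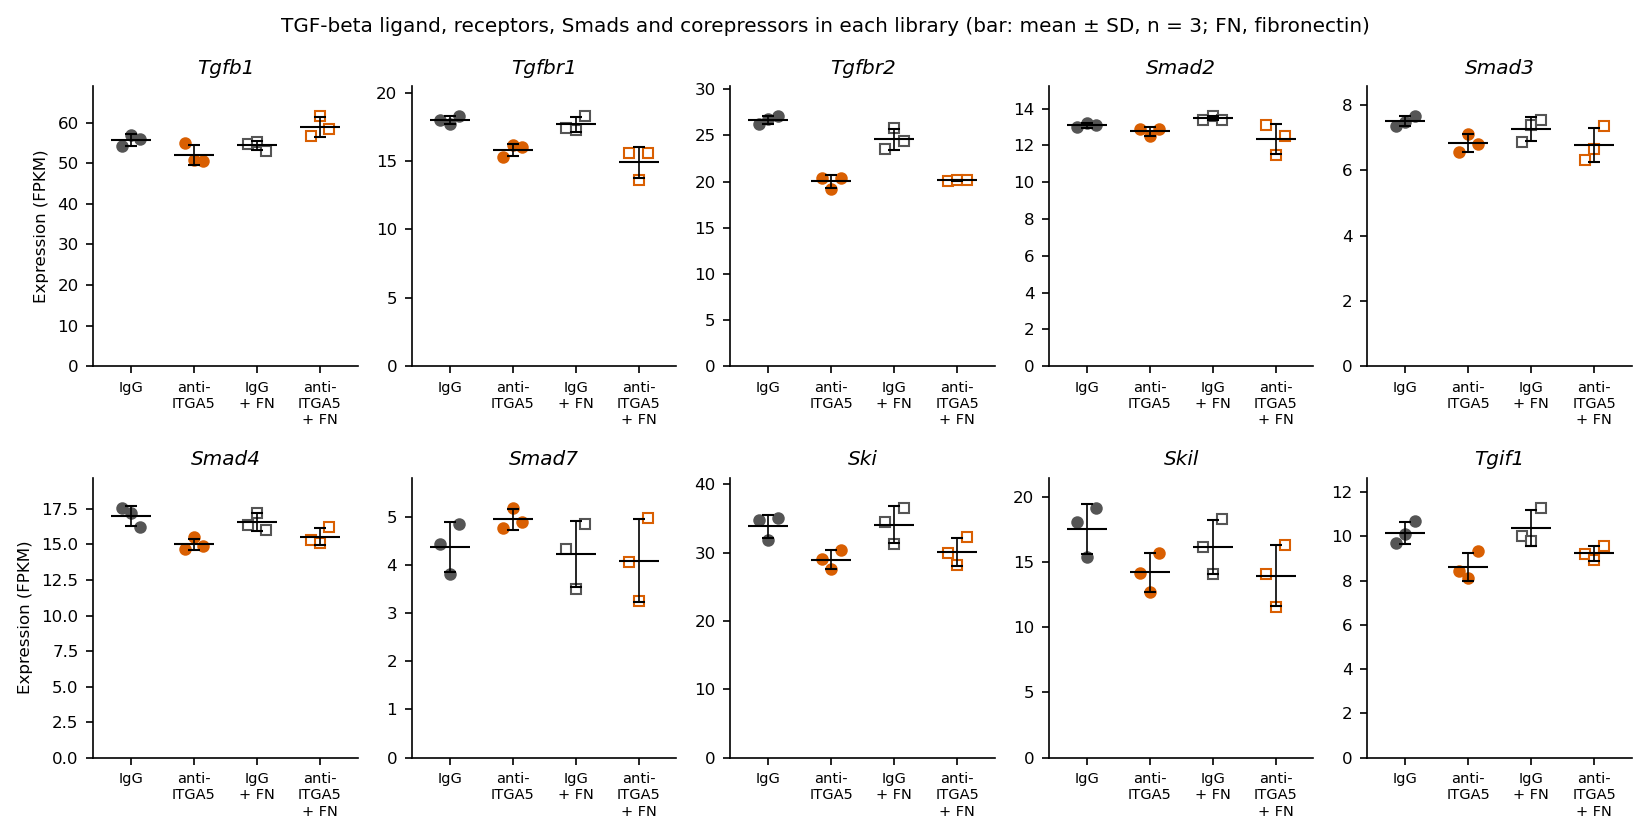
Expression in FPKM of the 10 members in each of the 12 libraries, 1 panel per gene with an axis from 0, with IgG in grey, anti-ITGA5 in orange, uncoated dishes as circles and fibronectin as open squares; bars are the mean ± SD of 3 libraries. All 6 anti-ITGA5 libraries lie below all 6 IgG libraries for Tgfbr2 and Tgfbr1, whereas the Tgfb1 groups span 50.5 to 61.6 FPKM.

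ITGA5 neutralization on uncoated dishes was compared with IgG to ask what integrin α5 contributes without a fibronectin coating. These dishes were not shown to be free of fibronectin. All held serum, and the cells expressed Fn1, its gene (1.87 ± 0.491 FPKM in IgG and 2.92 ± 0.591 in anti-ITGA5). Both receptors and all 3 corepressors fell, Tgfbr2 the most, while the ligand and the 4 Smads did not pass the test. Thus 5 of 10 members were called at an adjusted p of 0.05 or less, all 5 lower, where 20.8% of 12924 tested genes were called and 9.79% were called lower. The median log2 fold change was -0.18 over the members and 0.01 over all tested genes. The libraries of the groups did not overlap in FPKM for 7 of 10 members, against 38.2% of tested genes. In bulk RNA, fewer cells of a type and less RNA per cell cannot be told apart.

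On fibronectin-coated dishes the same comparison called both receptors lower and no other member. These 2 of 10 members stood beside 27.6% of 12916 tested genes called and 13.2% called lower, so that the count of members was near the background. The sign was negative for 9 of 10 members on each kind of dish, and the median log2 fold change on fibronectin was -0.15, against 0.00 over all tested genes. Groups did not overlap for 5 members (42.4% of tested genes). Scaling by total counts instead of the trimmed mean of M-values (TMM) moved the calls over all genes from 1419 higher and 1265 lower to 1838 and 940 without fibronectin, and from 1866 and 1699 to 2407 and 1264 with it. Under that scaling 2 members were called lower without fibronectin, Tgfbr2 and Ski. With fibronectin both receptors were called lower, and Tgfb1 was called higher (adjusted p = 0.0173).

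**Figure D2:**
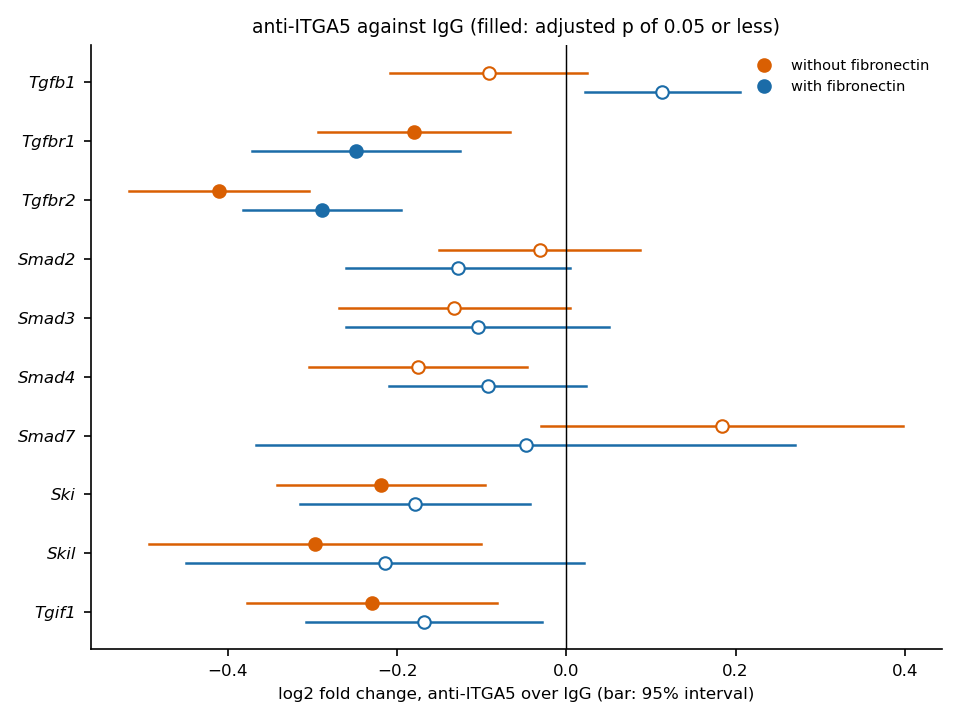
Log2 fold change of anti-ITGA5 over IgG for each member from edgeR, with 95% intervals, on uncoated (orange) and fibronectin-coated (blue) dishes, 3 libraries a group; filled points have an adjusted p of 0.05 or less. Tgfbr1 and Tgfbr2 are filled on both kinds of dish, and Ski, Skil and Tgif1 on uncoated dishes.

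Tgfb1 (ENSMUSG00000002603, chr7:25687002-25705077, plus strand of GRCm38) encodes the ligand. It measured 54.2, 56.9 and 55.9 FPKM in IgG without fibronectin and 55.0, 50.7 and 50.5 in anti-ITGA5 without fibronectin, and the groups overlapped. Its log2 fold change there was -0.09 (95% interval -0.21 to 0.02, adjusted p = 0.252). On fibronectin it measured 54.8, 55.2 and 53.1 FPKM in IgG and 56.8, 61.6 and 58.3 in anti-ITGA5. All 3 antibody libraries were above the 3 controls, yet the change of 0.11 (0.02 to 0.21) did not pass the test (adjusted p = 0.0639). The ligand transcript therefore had opposite signs on the 2 kinds of dish, and neither change was called. The rise on fibronectin was called in 2 of 16 alternative settings (lowest adjusted p = 0.0173, with total counts).

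Tgfbr2 (ENSMUSG00000032440, chr9:116084293-116175360, minus strand), the receptor that binds the ligand, had the largest change of the 10 members on both kinds of dish. On fibronectin Skil exceeded it without IgG library 2 (-0.31 against -0.26) or without anti-ITGA5 library 3 (-0.33 against -0.29), and so did Tgfbr1 (-0.27) without IgG library 2. In IgG without fibronectin it measured 26.2, 26.8 and 27.1 FPKM, and in anti-ITGA5 without fibronectin 20.4, 19.2 and 20.4. The group means were 26.7 ± 0.426 and 20.0 ± 0.727 (SD, n = 3), with every antibody library below every control. Tgfbr2 fell by 0.41 on the log2 scale (SE 0.048, adjusted p = 0.000223), to 0.753 of the IgG level, and 17.9% of tested genes had a larger change. On fibronectin it measured 23.5, 25.8 and 24.4 FPKM in IgG and 20.1, 20.2 and 20.2 in anti-ITGA5, with no overlap. The change there was -0.29 (SE 0.0431, adjusted p = 0.000366), to 0.819 of the IgG level. This call held under all 16 alternative settings on each kind of dish, each library left out included, with adjusted p-values of 1.18e-10 to 0.00736 without and 2.27e-07 to 0.0138 with fibronectin.

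Tgfbr1 (ENSMUSG00000007613, chr4:47353222-47414931, plus strand) encodes the receptor kinase that phosphorylates Smad2 and Smad3. It measured 18.0, 17.7 and 18.3 FPKM in IgG and 15.3, 16.2 and 16.0 in anti-ITGA5 without fibronectin. On fibronectin the values were 17.4, 17.3 and 18.3 in IgG and 15.6, 13.6 and 15.6 in anti-ITGA5, and no antibody library reached a control on either kind of dish. Tgfbr1 fell by 0.25 on fibronectin (SE 0.0566, adjusted p = 0.006), a call kept without each of the 6 libraries. Without fibronectin it fell by 0.18 (SE 0.0512, adjusted p = 0.0305). That call was lost without IgG library 1, 2 or 3 (adjusted p = 0.115, 0.072 and 0.11) and without anti-ITGA5 library 1 or 3 (0.137 and 0.0683), and it held in 9 of 16 settings.

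The receptor-regulated Smads carry the signal from the receptors into the nucleus. Smad2 (ENSMUSG00000024563, chr18:76241580-76305731, plus strand) measured 13.0, 13.2 and 13.1 FPKM in IgG and 12.9, 12.5 and 12.9 in anti-ITGA5 without fibronectin, and 13.4, 13.6 and 13.4 against 13.1, 11.5 and 12.5 with it. Smad3 (ENSMUSG00000032402, chr9:63646767-63757994, minus strand) measured 7.36, 7.47 and 7.66 against 6.56, 7.11 and 6.79 without fibronectin, and 6.86, 7.37 and 7.55 against 6.30, 6.66 and 7.34 with it. The groups overlapped only for Smad3 on fibronectin, yet neither gene passed the test on either kind of dish. The log2 fold changes of Smad2 were -0.03 (95% interval -0.15 to 0.09) and -0.13 (-0.26 to 0.00), with adjusted p = 0.73 and 0.143. Those of Smad3 were -0.13 (-0.27 to 0.00) and -0.10 (-0.26 to 0.05), with adjusted p = 0.163 and 0.305. On fibronectin Smad2 moved to -0.08 without anti-ITGA5 library 2, and Smad3 to -0.05 without anti-ITGA5 library 1 and -0.17 without library 3.

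Smad4 (ENSMUSG00000024515, chr18:73639009-73703780, minus strand), the shared partner of the other Smads, measured 17.6, 17.2 and 16.2 FPKM in IgG and 14.7, 15.5 and 14.9 in anti-ITGA5 without fibronectin. The groups did not overlap, and the change of -0.18 (SE 0.0581) lay just outside the threshold (adjusted p = 0.0558). Without anti-ITGA5 library 2 it passed (adjusted p = 0.014), as it did when all 12 libraries were fitted together (0.0295). On fibronectin the values were 16.4, 17.2 and 16.0 against 15.3, 15.1 and 16.2, which overlapped (change -0.09, adjusted p = 0.225). A processed pseudogene, AC132418.2, lies within Smad4 on the opposite strand without sharing an exon in GENCODE M21, and the strand used in counting is not given in the sources used here.

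Smad7 (ENSMUSG00000025880, chr18:75367529-75395935, plus strand), which blocks the receptors and is itself switched on by TGF-beta, was the least precise member. It measured 4.44, 3.81 and 4.85 FPKM in IgG and 4.77, 5.19 and 4.89 in anti-ITGA5 without fibronectin, and 4.33, 3.50 and 4.84 against 4.05, 3.24 and 4.98 with it. The groups overlapped on both kinds of dish. The log2 fold changes were 0.18 (95% interval -0.03 to 0.40, adjusted p = 0.213) and -0.05 (-0.37 to 0.27, adjusted p = 0.84). The former dropped to 0.09 without IgG library 2 (adjusted p = 0.547), and the latter ranged from -0.21 to 0.09 with a library left out. Smad7 had 273 to 454 counts per library, the fewest of the members.

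The corepressors Ski (ENSMUSG00000029050, chr4:155154075-155222592, minus strand) and Skil (ENSMUSG00000027660, chr3:31095058-31122577, plus strand), also known as SnoN, bind Smad complexes and hold their target genes silent. Ski measured 34.8, 31.9 and 35.0 FPKM in IgG and 29.0, 27.6 and 30.4 in anti-ITGA5 without fibronectin, with no overlap. Ski fell by 0.22 (SE 0.0555, adjusted p = 0.0184), to 0.859 of the IgG level. The call was lost without IgG library 1 or 3 (adjusted p = 0.108 and 0.0938) or anti-ITGA5 library 1 (0.0754) and held in 12 of 16 settings. With fibronectin Ski measured 34.5, 31.2 and 36.6 against 30.0, 28.2 and 32.3, and the change of -0.18 (SE 0.0626) missed the threshold at an adjusted p of 0.0504. It passed, among other settings, with DESeq2 (0.0326), without a count filter (0.00422) or with a minimum of 10 counts per library (0.0471), and without IgG library 2 (0.0142) or anti-ITGA5 library 3 (0.00681), so the call on fibronectin depended on the setting.

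Skil measured 18.1, 15.4 and 19.2 FPKM in IgG and 14.2, 12.7 and 15.7 in anti-ITGA5 without fibronectin. The highest antibody library exceeded the lowest control, and Skil fell by 0.30 (SE 0.0887, adjusted p = 0.0372). That call was lost without IgG library 1 or 3 (0.151 and 0.173) or anti-ITGA5 library 1 (0.109), with total counts (0.0522), with limma (0.104 to 0.245) and with all 12 libraries fitted together (0.0815), and held in 8 of 16 settings. On fibronectin the values were 16.2, 14.1 and 18.3 against 14.1, 11.6 and 16.3, with a change of -0.21 (95% interval -0.45 to 0.02, adjusted p = 0.166), which passed, among other settings, without anti-ITGA5 library 3 (0.00756) or without a count filter (0.00058). It shrank to -0.12 without IgG library 3 (0.486) and to -0.09 without anti-ITGA5 library 2 (0.522). For both Ski and Skil the library numbered 2 was the lowest and that numbered 3 the highest in 4 of 4 groups. Such an order was not limited to them: library 1 was the lowest for Smad3, and library 3 the highest for Tgif1, in 4 of 4 groups.

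Tgif1 (ENSMUSG00000047407, chr17:70844205-70853546, minus strand), a homeodomain corepressor of Smads, measured 9.70, 10.1 and 10.7 FPKM in IgG and 8.42, 8.11 and 9.32 in anti-ITGA5 without fibronectin. No antibody library reached a control, and Tgif1 fell by 0.23 (SE 0.0668, adjusted p = 0.0336). The call was lost without IgG library 1, 2 or 3 (0.0658, 0.0878 and 0.134) or anti-ITGA5 library 1 (0.126), and with DESeq2 (0.0639), and held in 7 of 16 settings. On fibronectin Tgif1 measured 10.0, 9.78 and 11.3 against 9.20, 8.91 and 9.58 and did not overlap either. The change there was -0.17 (SE 0.0641, adjusted p = 0.0692), and it passed, among other settings, without IgG library 2 (0.0456) or anti-ITGA5 library 3 (0.0415) and shrank to -0.11 without IgG library 3 (0.257). An exact permutation test of 3 libraries against 3 cannot go below p = 0.10, so for single FPKM values it can show no more than the lack of overlap.

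Fibronectin coating was compared with uncoated dishes under IgG and under anti-ITGA5 to ask what the matrix itself changes. No member was called in either comparison, though in IgG Tgfbr2 and Skil were each called lower in 1 of 16 alternative settings. Of all tested genes, edgeR called 0.449% in IgG (58 of 12925, with 1266 at an unadjusted p under 0.05) and 0% in anti-ITGA5 (461 at an unadjusted p under 0.05, and DESeq2 called 5). The variation between replicates that edgeR estimated over all genes was 0.0451 in IgG and 0.0902 in anti-ITGA5. The median absolute log2 fold change was 0.0705 and 0.0708, so these shares do not compare the size of the 2 responses. Among the members, 1 had an unadjusted p under 0.05 in each comparison. Tgfbr2 was lower on fibronectin in IgG, where the libraries at 23.5, 25.8 and 24.4 FPKM lay below those at 26.2, 26.8 and 27.1 (change -0.12, SE 0.0402, adjusted p = 0.255). Groups did not overlap for 2 of 10 members in that comparison (15.4% of tested genes) and for 1 in anti-ITGA5 (9.74%). The other member in IgG was Smad2, which was higher on fibronectin (13.4, 13.6 and 13.4 FPKM against 13.0, 13.2 and 13.1, change 0.04, adjusted p = 0.876). In anti-ITGA5, Tgfb1 at 56.8, 61.6 and 58.3 FPKM on fibronectin lay above the uncoated 55.0, 50.7 and 50.5 (change 0.16, SE 0.0562, adjusted p = 0.979). These comparisons share libraries with those of the antibody and are not independent of them.

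**Figure D3:**
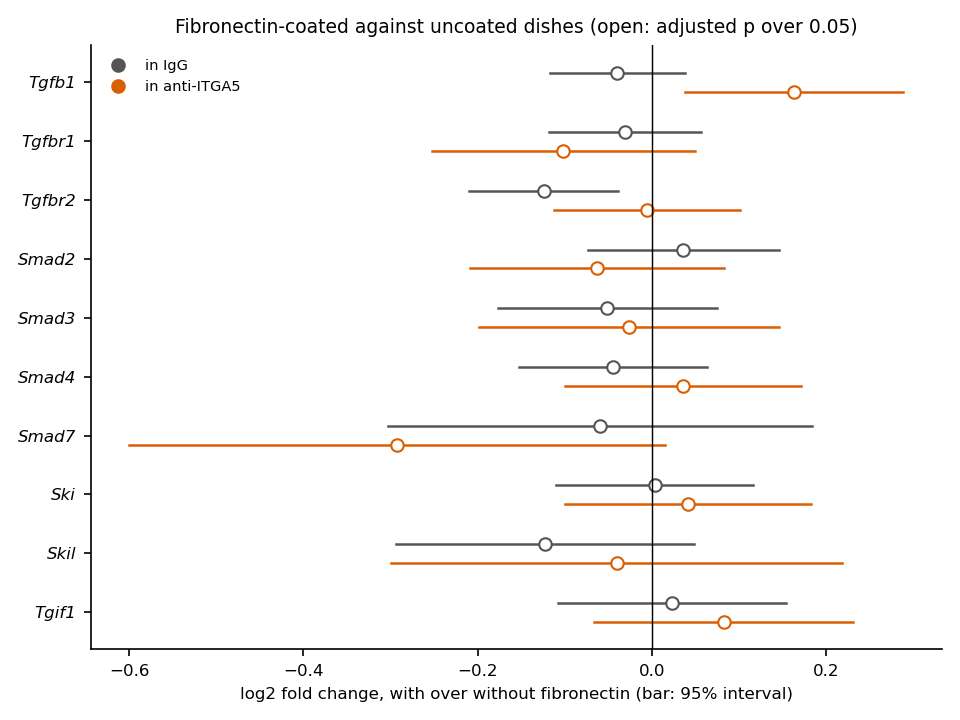
Log2 fold change of fibronectin-coated over uncoated dishes for each member from edgeR, with 95% intervals, under IgG (grey) and anti-ITGA5 (orange), 3 libraries a group. All points are open, since no member had an adjusted p of 0.05 or less, and the widest intervals belong to Smad7 and Skil.

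Whether the antibody difference depended on the coating was tested over all 12 libraries. No member passed this interaction test, where 0.0223% of 13455 genes (3 genes) were called and 386 had an unadjusted p under 0.05. Tgfb1 had the smallest p among the members: its antibody difference was higher on fibronectin by 0.20 on the log2 scale (SE 0.066, 95% interval 0.06 to 0.34, adjusted p = 0.9997). For Tgfbr2 the difference was less negative on fibronectin by 0.12 (95% interval -0.01 to 0.25, adjusted p = 0.9997). The calls of Ski, Skil and Tgif1 on uncoated dishes alone were thus not shown to differ from their changes on fibronectin.

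The rest of the pathway was read from 8 lists of 127 genes in all. Of the 104 tested, 5 were called higher and 13 lower without fibronectin, and 11 higher and 20 lower with it. These are 17.3% and 29.8% of the genes tested, near the shares of all genes called. In the list for latency and activation of the ligand, 1 of 13 tested genes rose and 3 fell without fibronectin, and 1 rose and 5 fell with it, where 20.8% and 27.6% of all tested genes were called (9.79% and 13.2% lower). Mmp9, a matrix protease able to cleave latent TGF-beta, measured 7.79 ± 0.456 FPKM in IgG and 2.05 ± 0.516 in anti-ITGA5 without fibronectin (change -1.90, adjusted p = 1.46e-05), and changed by -1.32 with it (adjusted p = 1.25e-06). Furin, the protease that cuts the TGF-beta precursor, fell by 0.38 without fibronectin (22.2 ± 1.29 to 16.9 ± 0.389 FPKM, adjusted p = 0.000984). Its mean was also lower with fibronectin (21.3 ± 0.320 FPKM in IgG and 16.1 ± 1.34 in anti-ITGA5, with no overlap). Thbs1, a secreted activator of latent TGF-beta, fell by 0.73 with fibronectin (28.2 ± 5.54 to 17.1 ± 3.90 FPKM, adjusted p = 0.00296). Plau, the urokinase that generates plasmin, another activator, rose by 0.30 without and 0.49 with fibronectin (adjusted p = 0.00728 and 2.69e-05).

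Among 11 tested receptors and coreceptors other than the members, 1 rose and 1 fell without fibronectin and 1 rose and 3 fell with it, beside the 20.8% and 27.6% of all tested genes called. Acvrl1, a type I receptor of the family, fell by 0.44 with fibronectin (10.6 ± 0.743 to 7.78 ± 0.251 FPKM, adjusted p = 0.000441). Cd109, a coreceptor that restrains TGF-beta signalling, rose by 0.63 there (1.79 ± 0.175 to 2.78 ± 0.107 FPKM, adjusted p = 0.00029). Both were also called without fibronectin, by -0.41 and 0.55, though those calls were lost without IgG library 3 (adjusted p = 0.0501 for Acvrl1 and 0.0509 for Cd109). Of 5 tested ligands other than Tgfb1, Gdf15, a distant relative of TGF-beta, fell by 0.34 and 0.40 (adjusted p = 0.00335 and 0.000375). None of the 3 other Smads tested, Smad1, Smad5 and Smad6, was called.

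Of 19 tested regulators of receptors and Smads, 3 fell without fibronectin, and 4 rose and 2 fell with it, near the 20.8% and 27.6% of all tested genes called. Wwp1, a ubiquitin ligase that acts on the receptors, fell by 0.35 without and 0.26 with fibronectin (67.3 ± 4.42 to 52.7 ± 1.39 and 60.8 ± 4.43 to 50.8 ± 0.329 FPKM; adjusted p = 0.0025 and 0.0017). Rnf111, a ubiquitin ligase known to target Smad7, Ski and Skil, fell by 0.20 with fibronectin (adjusted p = 0.0114). Among 17 tested nuclear partners of Smads, 2 rose and 1 fell without fibronectin and 2 rose and 2 fell with it. Hdac1, a deacetylase brought in by the corepressors, rose by 0.22 with fibronectin (adjusted p = 0.00699). In the list of kinases of the branch that bypasses Smads, 1 of 13 fell without fibronectin, and 2 rose and 1 fell with it.

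Of 25 tested genes known to respond to TGF-beta in other cells, 1 rose and 4 fell without fibronectin, and 1 rose and 7 fell with it. Of all tested genes 20.8% and 27.6% were called, and 9.79% and 13.2% were called lower. The gene that rose on both kinds of dish was Fn1, by 0.66 and 0.61 (adjusted p = 0.0227 and 0.0101), and both calls were lost without some libraries. Bhlhe40, a transcriptional repressor, measured 12.5 ± 0.918 FPKM in IgG and 8.52 ± 1.62 in anti-ITGA5 without fibronectin, and 12.7 ± 1.35 and 9.20 ± 0.584 with it. It fell by 0.54 and 0.47 (adjusted p = 0.00667 and 0.000817). Many of these genes answer other signals too, and the list's median change was -0.09 without and -0.14 with fibronectin. The calls named above held without each library, apart from those stated. Other settings, such as unfiltered limma, ended those of Plau (called in 13 of 16 settings) and Bhlhe40 (15 of 16) without fibronectin and of Thbs1 and Rnf111 (15 of 16 each) with it. Fn1 and the other genes named by the rule lost their call without at least 1 library of their comparison. On uncoated dishes these were Fn1, Thbs1, Junb, Traf6, Runx3, Hdac1, Atf2, Ldlrad4 and Smurf1. On fibronectin they included Fn1, Tab1, Map2k3, Traf6, Ltbp2, Jund, Atf2, Zeb2, Acvr2b, Bambi, Usp11 and Pdpk1, and their highest adjusted p without a library lay between 0.0531 and 0.187 over both comparisons.

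Fibronectin in IgG called 2 of the 104 pathway genes (1.92%, against 0.449% of all tested genes), Spp1 higher (0.23, adjusted p = 0.0118) and Dab2, an adaptor that links receptors to Smads, lower (-0.18, adjusted p = 0.0297). Both calls were lost without library 1 of either group, and that of Dab2 also without library 2 of the uncoated or library 3 of the coated group (highest adjusted p = 0.204 for Spp1 and 0.325 for Dab2). No pathway gene was called for fibronectin in anti-ITGA5 or for the interaction.

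**Figure D4:**
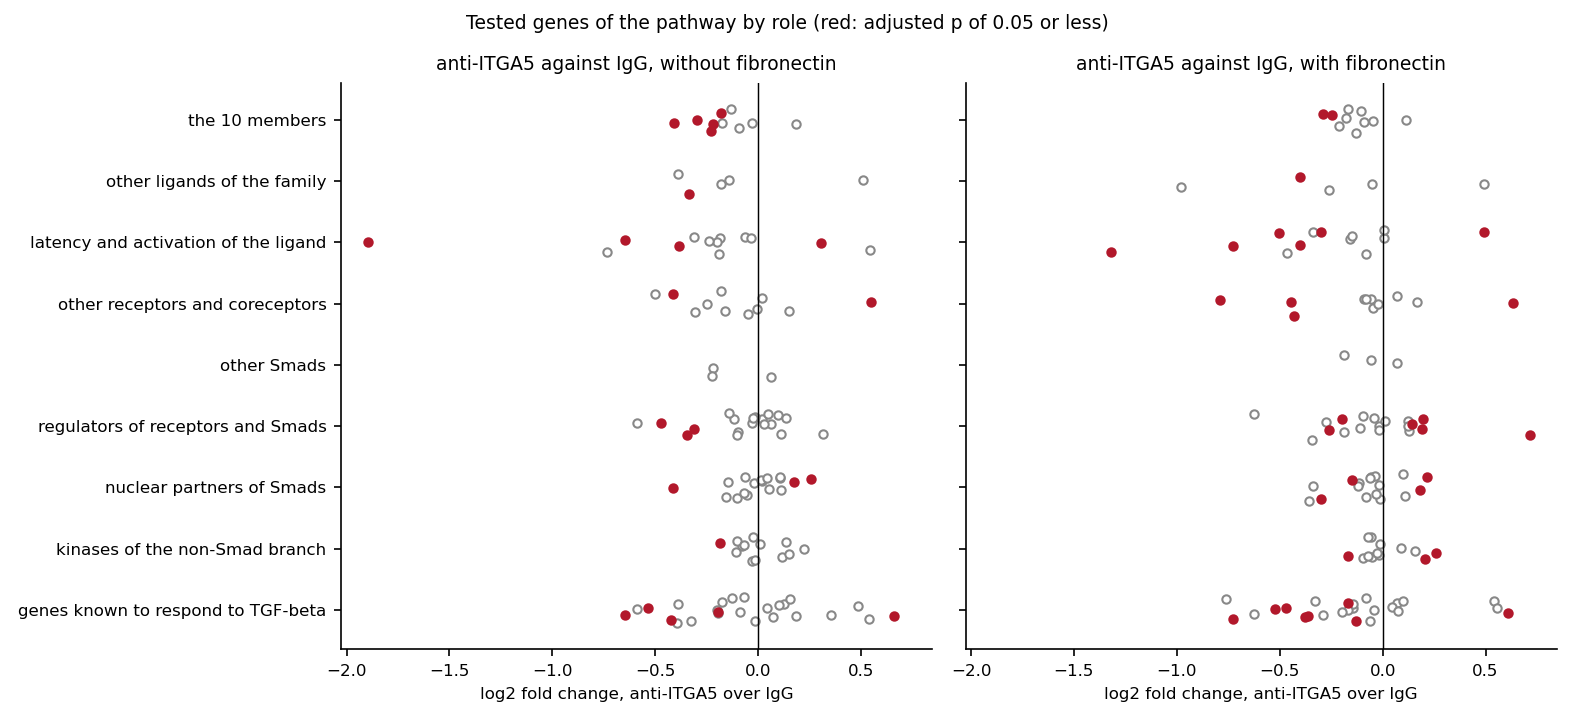
Log2 fold change of anti-ITGA5 over IgG for the tested genes of each pathway list and for the 10 members, on uncoated (left) and fibronectin-coated (right) dishes; each point is 1 gene, spread vertically for visibility, and red points have an adjusted p of 0.05 or less. In the fit shown (TMM scaling, no replicate block) the called members lie on the negative side on both kinds of dish. With total counts, among other settings, Tgfb1 is also called, higher, on fibronectin. There 6 of the 8 lists hold red points on both sides of 0, and Mmp9 at -1.90 and -1.32 is the farthest from 0 on the 2 kinds of dish.

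The genes whose log2 CPM followed a member most closely over the 12 libraries, among 13454 genes, were Tbl1x, Abcd2 and Arl8b for Tgfbr2 (Pearson r = 0.976, 0.972 and 0.969), and Reps2, Xylt1 and Rbsn for Tgfbr1 (0.965, 0.964 and 0.963). For Tgfb1 they were Cox6b2, Ctdnep1 and Hmgn2-ps1 (0.915, 0.841 and 0.837). The points share the 4 groups and the libraries' depth, and these values are a description without a test.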

How the data were processed

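RNA-seq was analysed in 12 libraries, 3 per group. The authors deposited 1 table of read counts per gene, not normalized, and 1 table of FPKM per gene, with 1 column per library; all 24 columns were used. Per the submitters' processing notes the tools were TopHat2 2.0.9, HTSeq 0.6.1 and Cufflinks 2.1.1 on GRCm38.p6; the annotation release and the strand used in counting are not given in the sources used here. Each deposited FPKM equalled the count divided by gene length and by a library total that was near but not equal to the plain sum. Gene coordinates are those of the files, and those of Smad2 differ from GENCODE M21. Intervals and tests use the spread between libraries.

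Counts were tested with edgeR 4.0.16 in R 4.3.3: filterByExpr (minimum count 10, minimum total 15), TMM scaling, the quasi-likelihood test and Benjamini-Hochberg adjustment over all genes tested, with a call at 0.05 or less. The study's methods named DESeq2, used here as an alternative. Each comparison used its own 6 libraries and the interaction all 12. The standard error was the log2 fold change divided by the square root of F. FPKM are means ± SD. The procedure was tested on simulated data with changes larger than those of the members, so recovery of changes of their size was not tested.

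Alternatives were DESeq2 1.42.0, its size factors or total counts in edgeR, no count filter (at least 1 count), a minimum of 10 counts per library, 1 fit over the 12 libraries, a block for the replicate number, limma 3.58.1 on log2(FPKM + 1) or log2(FPKM + 0.1) of genes with a mean of 0.5 FPKM, the former also without a filter, and each library left out. The members and lists were chosen with earlier results of these data known. Named were all members, Itga5, up to 4 called genes per list and comparison with the largest change and at least 10 counts in every library, and the 3 genes most correlated with Tgfb1 and with members called in 2 comparisons; 1 gene that the rule named is not reported here.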

Additional observations from a re-analysis of the deposited data

How the results depend on the processing

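Tgfbr2 was called lower in both antibody comparisons under every alternative run, and Tgfbr1 with fibronectin under 15 of 16 (adjusted p = 0.0753 with limma when no filter was set). In place of the 5 members called without fibronectin, 2 were called with total counts, 3 with limma at either pseudocount (1 or 0.1 FPKM), 2 with unfiltered limma, and 1 to 6 when a library was left out, the 6 including Smad4. Of all genes, 1220 were called with limma without a filter and 1473 to 3834 with a library left out, in place of 2684. With fibronectin, 4 members were called without a count filter, 6 with the replicate block, 1 with limma without a filter and 2 to 5 with a library left out, in place of 2; limma without a filter called 1871 genes in place of 3565. For fibronectin in IgG, the 58 genes became 141 with DESeq2, 241 without a filter, 11 with all 12 libraries in one fit, 416 with the replicate block, 7, 5 and 17 with the 3 limma settings, and 9 to 101 with a library left out. For fibronectin in anti-ITGA5, the 0 genes became 5 with DESeq2, 327 without a filter, 2 with all 12 libraries, 2 with the replicate block and 0 to 4 with a library left out. For the interaction, the 3 genes became 65 without a filter, 1, 1 and 7 with limma, and 1 to 6 with a library left out. Of the fold changes printed for single genes, Smad2 without fibronectin changed sign with total counts (0.0084), and Smad7 with fibronectin when IgG library 3 (0.0574) or anti-ITGA5 library 2 (0.0947) was left out (range -0.21 to 0.0947). Other members changed sign under some settings in the fibronectin comparisons and the interaction, where none was called. The cause was not tested.

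The replicate numbers were not taken as pairs, since not every pair correlated over 0.1: deviations of libraries of the same number correlated at 0.032 to 0.0874 and 0.0637 to 0.149 in the antibody comparisons and at 0.0548 to 0.138 for fibronectin in IgG. Every library nevertheless correlated best with its own number in those 3 comparisons, a hint of pairing from the data and not from the design; for fibronectin in anti-ITGA5, 2 of 6 did. With the replicate block, 5 members and 2968 genes were called without fibronectin and 6 members and 4538 genes with it, the 6 being both receptors, Ski, Skil and Tgif1 lower (adjusted p = 0.000785, 0.000122 and 0.0159 for the last 3) and Tgfb1 higher (0.0242). In IgG, fibronectin then called 2 members lower, Tgfbr2 (adjusted p = 0.0285) and Skil (0.0463). The depth limits Smad7 most, at 273 to 454 counts.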

Other observations

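The ratio of ligand to ligand-binding receptor was computed in each library after the values of both genes had been seen. Tgfb1 over Tgfbr2, each in FPKM, was 2.07, 2.13 and 2.07 in IgG without fibronectin and 2.69, 2.64 and 2.47 in anti-ITGA5 without fibronectin. With fibronectin it was 2.33, 2.14 and 2.18 in IgG and 2.83, 3.05 and 2.89 in anti-ITGA5. All 6 antibody libraries were above all 6 controls, with means of 2.60 ± 0.116 against 2.09 ± 0.0347 and 2.92 ± 0.115 against 2.22 ± 0.0989 (SD, n = 3; exact permutation p = 0.1 in each, the smallest 3 libraries against 3 can give). The ratio rests on the Tgfbr2 values given above and is not independent of them.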
